A study of Arabidopsis thaliana with 4 samples.

Results

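The MYC and JAM factors of jasmonate signalling, with the receptor subunit COI1 and the adaptor NINJA, were followed in Arabidopsis thaliana seedlings that were wild type or carried lux-6. The members are MYC2, MYC3, MYC4, JAM1, JAM2, JAM3, COI1 and NINJA, picked by their AGI identifiers, and all 8 were found among the 33602 gene identifiers of each table. Both groups are of ecotype Col-0. The first is labelled wild type, and the second is labelled lux -/- and named lux-6. Neither the lesion of lux-6 nor the number of seedlings in a library is given in the labels. Seedlings were 10 days old, grown in LD (not spelt out in the labels) at 22 °C on MS medium with 3% sucrose, and taken whole at ZT12, 12 h into the daily cycle. Each genotype has 2 libraries, which the series calls biological replicates. The comparison asks how transcript levels differ when LUX, a DNA-binding subunit of the evening complex of the circadian clock, is affected, in a series on leaf senescence.

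Jasmonates are plant hormones made after wounding and during stress, and they also promote leaf senescence. COI1 is the F-box protein that, with a JAZ repressor, binds the active hormone and sends the JAZ protein to degradation. Without hormone, JAZ proteins hold MYC2, MYC3 and MYC4 inactive and recruit TOPLESS corepressors through NINJA. MYC2, MYC3 and MYC4 are related bHLH activators that bind the G-box, CACGTG, in their targets. JAM1, JAM2 and JAM3 are bHLH proteins that bind the same motif but repress, and so counter the MYC factors.

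MYC2 and JAM1, an activator and a repressor, were the members with the largest differences, and both stood at close to 3 times the Col-0 mean in lux-6. The remaining 6 members had mean FPKM ratios of lux-6 to Col-0 between 0.955 for NINJA and 1.40 for MYC4. Values are FPKM, fragment numbers divided by the length of the gene and the size of the library, so levels of different genes can be set side by side on the gene lengths the authors used. No member passed the limma test over all genes, which asks for an adjusted p of at most 0.05. Over the whole table, 0.286% of 19592 tested genes passed upwards and 0.0051% downwards. At an unadjusted p under 0.05, 2 of the 8 members, MYC2 and JAM1, were higher, against 9.18% of all tested genes. With 2 libraries a genotype, the smallest two-sided p of an exact permutation test is 0.333.

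The libraries were not equally alike. Each rested on between 10735709 and 11198704 fragments, worked back from the values. Genes are not independent replicates, but over 19592 of them the lux-6 libraries correlated at Pearson's r = 0.984 on log2(FPKM + 1) and the Col-0 libraries at 0.909. Col-0 replicate 1 correlated more closely with lux-6 replicates 1 and 2, at 0.955 and 0.957, than with Col-0 replicate 2. The latter correlated at 0.863 with each lux-6 library, so the library that stood furthest apart was a Col-0 library. In Col-0 replicate 2, plastid-encoded genes held 3.09% of summed FPKM, and between 0.0525% and 0.0698% in the other libraries. All 5 shoot and leaf markers and all 7 root markers were at 1 FPKM or more in each library, and the 4 flower markers summed to between 0.794 and 1.94 FPKM. LUX (AT3G46640) had 57.0 and 73.9 FPKM in Col-0, against 34.8 and 35.3 in lux-6 (log2 fold change -0.87, adjusted p = 0.187 in limma). Values without Col-0 replicate 2 are therefore also given for part of the results, though not for every gene. Where none is given, dependence on that library is not described. In these bulk samples, fewer cells of a type and less RNA per cell cannot be told apart.

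Sites matching the motif that MYC and JAM proteins share, and the motif known for LUX, are shown here for the genes that hold them. In the 1500 bases before each annotated coding start, a script searched both strands for the G-box, CACGTG, and for the LUX-type motif, GATACG or GATTCG. The G-box reads the same on both strands, and the motifs do not overlap each other in these windows. Of the 8 members, 4 held a G-box: MYC2, JAM1, JAM2 and JAM3. Of all 27442 protein-coding windows of that length 20.2% did. A LUX-type match was found for JAM1 (1 match) and COI1 (2 matches), and 55.3% of all windows held one. In the MYC2 window no LUX-type letters were found, which says nothing on binding by LUX there or elsewhere in the gene. Each site is printed 5′ to 3′ on the gene's strand with the motif in capitals, from RefSeq TAIR10.1.
MYC2 G-box: gagcgtgtgataCACGTGcgaccaaacagc
JAM1 G-box: taggtacatacaCACGTGtgtacacaaaac
JAM2 G-box: ctctcctaaatcCACGTGaacttcacgtgc
JAM3 G-box: ctcagcaagaatCACGTGattctcgttcct
JAM1 LUX-type: aattaggtttatCGAATCtctttctttatt
COI1 LUX-type, first: tcttctctaaatCGAATCtttccaggattc
COI1 LUX-type, second: gaatctttccagGATTCGtttgtttttttc
The MYC2 site lies at chr1:11801211-11801240 on the minus strand, 315 bases before the coding start and inside the annotated 5′ UTR. The JAM1 G-box, at chr2:19093665-19093694 on the minus strand, and its LUX-type match, at chr2:19094330-19094359 on the same strand, lie 795 and 1460 bases before the coding start, upstream of the gene. The JAM2 site shown, the first of 2, is at chr1:108257-108286 on the plus strand and 1326 bases before the coding start, and the other one stands in lower case near the 3′ end of the same run. The JAM3 site is at chr4:9267441-9267470 on the plus strand, 146 bases before the coding start and downstream of the annotated gene start. The COI1 matches are at chr2:16675521-16675550 and chr2:16675508-16675537 on the minus strand, 52 and 39 bases before the coding start, within the annotated 5′ UTR or an intron, and their printed runs overlap. JAM2 and JAM3, which have a G-box as MYC2 and JAM1 do, had mean ratios of 1.04 and 1.03. Whether a G-box bears on any of these levels was not tested.

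**Figure D1:**
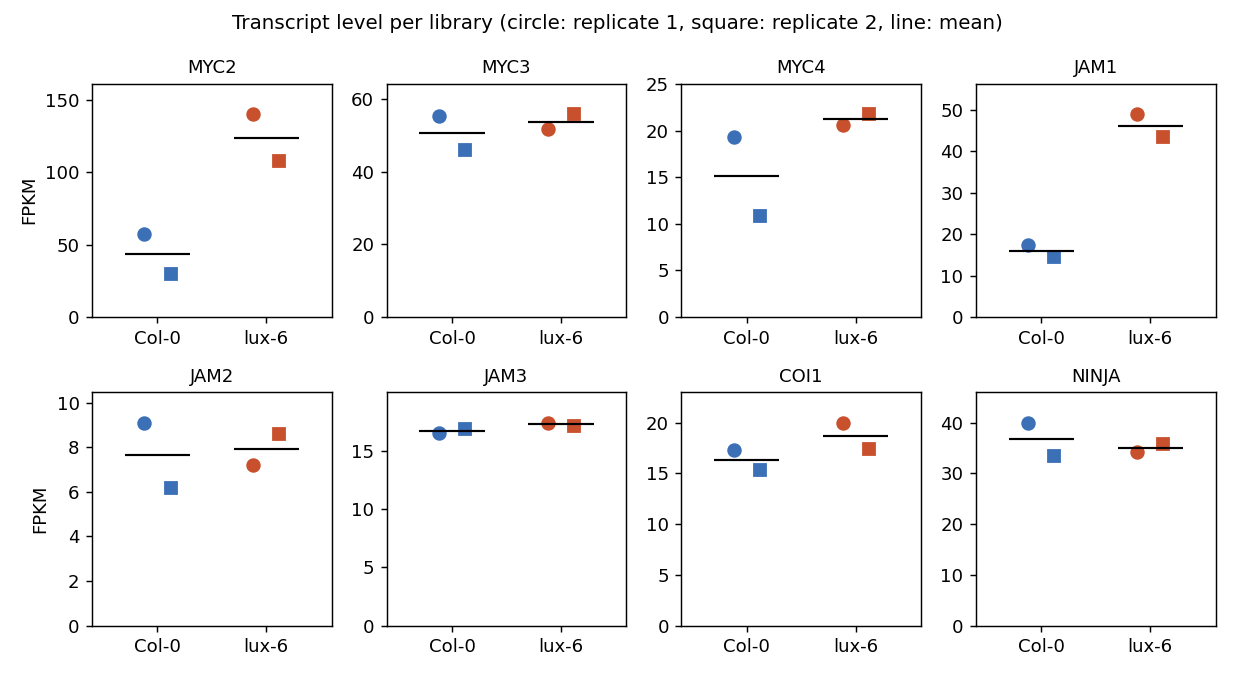
Transcript level in FPKM (vertical axes, each from 0 and scaled to its gene) of the 8 genes in Col-0 and lux-6, with circles for replicate 1, squares for replicate 2 and a line at the mean of 2 libraries. MYC2 and JAM1 show both lux-6 libraries well above both Col-0 libraries, while MYC3, JAM2 and NINJA overlap between genotypes.

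Among the activators, MYC2 (AT1G32640) had 57.1 FPKM in Col-0 replicate 1, 29.5 in Col-0 replicate 2, 140.4 in lux-6 replicate 1 and 108 in lux-6 replicate 2. The mutant libraries were the highest, without overlap, and the ratio of a lux-6 to a Col-0 library ran from 1.89 to 4.76. The means were 43.3 ± 19.5 and 124 ± 23.0 FPKM (SD, n = 2). The log2 fold change of FPKM + 1 was 1.56 with a standard error of 0.36 and a 95% interval of 0.64 to 2.48, and it did not pass (limma adjusted p = 0.197). Behind these values stood 1371 and 720 Col-0 fragments against 3355 and 2521 from lux-6, so counting alone gives each library an error between 1.73% and 3.73%. The Col-0 replicates differed by far more than that, with replicate 2 at 0.517 of replicate 1. Without Col-0 replicate 2 the log2 fold change was 1.09, and without Col-0 replicate 1 it was 2.02.

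MYC3 (AT5G46760), which shares much of its work with MYC2, measured 55.5 and 46.0 FPKM in the Col-0 libraries against 51.9 and 56.0 in those of lux-6. The genotypes overlapped, and the log2 fold change was 0.09 with a 95% interval of -0.37 to 0.55 (limma adjusted p = 0.834). It was -0.042 without Col-0 replicate 2. MYC4 (AT4G17880), a further activator of this kind, had 19.3 and 10.9 FPKM in Col-0, against 20.6 and 21.8 in lux-6. Both mutant values exceeded both Col-0 values, but replicate 1 of Col-0 was close to them and replicate 2 well below. The log2 fold change was 0.51 with a 95% interval of -0.25 to 1.28 (limma adjusted p = 0.525), and it was 0.13 without Col-0 replicate 2. The interval allows a difference of either sign for both genes.

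MYC5 (AT5G46830), the nearest other relative of these activators and not a member, did not pass either. It measured 4.19 and 4.71 FPKM in the Col-0 libraries against 1.78 and 1.88 in those of lux-6. Its log2 fold change was -0.94 with a standard error of 0.23 (limma adjusted p = 0.216).

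Among the repressors, JAM1 (AT2G46510), also annotated as the abscisic-acid-inducible factor AIB, had 17.4 and 14.4 FPKM in Col-0, against 49.0 and 43.4 in lux-6. All 4 pairings of a lux-6 with a Col-0 library gave ratios between 2.49 and 3.41. The replicates lay closer together than those of MYC2, with means of 15.9 ± 2.15 and 46.2 ± 3.98 FPKM (SD, n = 2). The log2 fold change was 1.49 with a standard error of 0.18 and a 95% interval of 1.01 to 1.96. JAM1 had the smallest p of the 8 members and ranked 150 of 19592 genes by p, but did not pass (limma adjusted p = 0.0662). Its Col-0 values rested on 453 and 380 fragments, its lux-6 values on 1270 and 1100. Without Col-0 replicate 2 the log2 fold change was 1.36, and without Col-0 replicate 1 it was 1.62.

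JAM2 (AT1G01260) measured 9.10 and 6.17 FPKM in the Col-0 libraries against 7.22 and 8.60 in those of lux-6, the lowest level of any member in all 4 libraries. The genotypes overlapped (log2 fold change 0.06, 95% interval -0.58 to 0.71, limma adjusted p = 0.923), and the sign turned to -0.18 without Col-0 replicate 2. JAM3 (AT4G16430) had 16.5 and 16.8 FPKM in Col-0, against 17.4 and 17.1 in lux-6. The highest library exceeded the lowest by a ratio of 1.05, and the counting error of a library with 336 fragments is 5.46%, so no difference was detectable at this depth. The log2 fold change was 0.05 with a 95% interval of -0.37 to 0.46 (limma adjusted p = 0.912), and -0.013 with median-of-ratios scaling. Both intervals still include moderate differences in either direction.

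COI1 (AT2G39940) measured 17.3 and 15.3 FPKM in the Col-0 libraries against 20.0 and 17.4 in those of lux-6. The lowest lux-6 library exceeded the highest Col-0 library by a ratio of 1.01, which is within the counting error of 4.68% for the latter. The log2 fold change was 0.19 with a 95% interval of -0.27 to 0.65 (limma adjusted p = 0.665), and 0.11 without Col-0 replicate 2. NINJA (AT4G28910) had 40.0 and 33.5 FPKM in Col-0, against 34.3 and 35.9 in lux-6. It was the only member with a negative log2 fold change over the 4 libraries, -0.059 with a 95% interval of -0.50 to 0.39 (limma adjusted p = 0.894). Its genotypes overlapped, and the value was 0.066 without Col-0 replicate 1.

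Counted over the 8 members, 5 had both lux-6 libraries above both Col-0 libraries, namely MYC2, MYC4, JAM1, JAM3 and COI1, against 26.1% of all tested genes. None had both below, against 22.8%. For JAM3 and COI1 this separation was within counting error, and with median-of-ratios scaling only MYC2, MYC4 and JAM1 kept it while NINJA lay below. The median log2 fold change was 0.14 over the members and 0.05 over all tested genes. Without Col-0 replicate 2, MYC2 and JAM1 passed upwards (limma adjusted p = 0.0331 and 0.00815), as did 3.47% of all genes. Without Col-0 replicate 1, MYC2, MYC4 and JAM1 passed, as did 21.7% of all genes. Such fits take the spread of the lone Col-0 library from the lux-6 pair, which lay closer together, so these calls are not stronger evidence.

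Touch and wounding genes and seed genes were higher in lux-6, as were the MYC2 and JAM1 values. All 7 touch and wounding genes were higher in both lux-6 libraries, summing to 112 and 80.4 FPKM in Col-0 and to 764 and 933 FPKM in lux-6, and none was at 0 in any library. Of these, TCH3, CML38 and ZAT12 passed in limma. All 10 seed genes were also higher in both lux-6 libraries, summing to 239 and 20.4 FPKM in Col-0 and to 2081 and 2193 FPKM in lux-6. SESA4 and CRU2 were at 0 in Col-0 replicate 2 and no seed gene was at 0 elsewhere. Of these, SESA3, SESA4, SESA5 and CRU2 passed in limma. Among all tested genes, 26.1% had both lux-6 libraries above both Col-0 libraries, and 0.286% passed upwards. Both lists, like the other lists here, were chosen with earlier results of these data known, so these shares are no test of them. The sums of both lists were higher in Col-0 replicate 1 than in replicate 2, as were MYC2 and JAM1. That direction was common, with a median log2 difference of -0.14 for Col-0 replicate 2 less replicate 1 over all tested genes. Within lux-6 both sums were higher in replicate 2, and MYC2 and JAM1 were higher in replicate 1. Single genes did not all follow the sums. WRKY40 had 138 and 90.3 FPKM in lux-6 replicates 1 and 2, and TCH3 had 13.8 and 15.4 FPKM in those of Col-0. The part of these touch, wounding and seed genes in the MYC2 and JAM1 values was not tested.

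**Figure D2:**
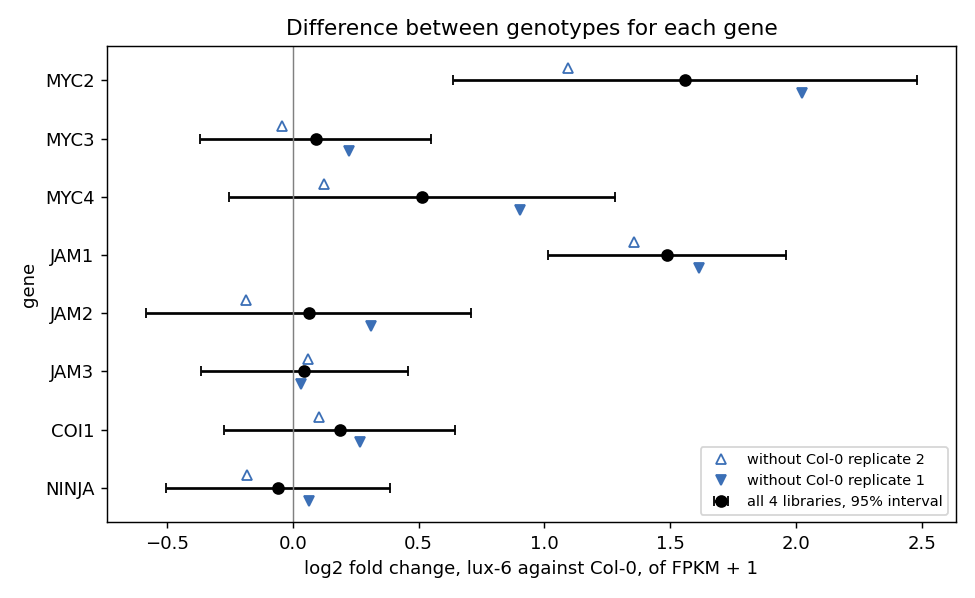
Log2 fold change of FPKM + 1, lux-6 against Col-0 (horizontal axis), for each gene, with the limma 95% interval over all 4 libraries and the values without either Col-0 library as triangles. MYC2 (1.56) and JAM1 (1.49) stand apart, and MYC3, JAM2 and NINJA take either sign depending on which Col-0 library is left out.

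The order of the levels differed between the libraries of the genotypes. In Col-0 replicate 1 MYC2 and MYC3 were level at 57.1 and 55.5 FPKM, and in Col-0 replicate 2 MYC3 led at 46.0 FPKM with NINJA and then MYC2 behind it. In both lux-6 libraries MYC2 led, followed by MYC3 and then JAM1. MYC4, COI1 and JAM3 stayed between 10.9 and 21.8 FPKM in every library, and their order among themselves differed between the Col-0 libraries. JAM1 was among this group in Col-0 and above it in lux-6.

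MYC2 accordingly made up more of the activator transcripts in lux-6. Its share of the summed FPKM of MYC2, MYC3 and MYC4 was 43.3% and 34.2% in the Col-0 libraries against 66.0% and 58.1% in those of lux-6. The share was 23.3 percentage points higher in lux-6 and 18.7 points without Col-0 replicate 2. MYC2 transcripts were 1.03 and 0.642 times those of MYC3 in Col-0, against 2.71 and 1.93 times in lux-6. On fragments, which are not divided by length, the gap in the share was 22.9 points. The length matters for such comparisons: the authors' values fit a MYC2 length of 2179 bases, where the RefSeq annotation has 3289. For MYC3 they fit 1779 bases against 2569, and for MYC4 2221 against 2360.

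JAM1 in turn made up more of the repressor transcripts. Its share of summed JAM1, JAM2 and JAM3 was 40.5% and 38.4% in Col-0, against 66.6% and 62.8% in lux-6, a gap of 25.2 percentage points. JAM3, level with JAM1 in Col-0 at a JAM1 to JAM3 ratio of 1.05 and 0.854, was exceeded 2.82 and 2.54 times in lux-6. Summed activator FPKM was 132 and 86.3 in Col-0, against 213 and 185 in lux-6. Summed repressor FPKM was 43.0 and 37.4 in Col-0, against 73.6 and 69.1 in lux-6. Both pools were thus larger in both lux-6 libraries. Their ratio, repressor over activator, was 0.326 and 0.433 in Col-0, against 0.346 and 0.372 in lux-6, with the lux-6 values between those of Col-0. The ratio of JAM1 to MYC2 alone overlapped likewise, with 0.305 and 0.487 in Col-0 against 0.349 and 0.402 in lux-6. The ratio of MYC2 to COI1 did not overlap, with 3.31 and 1.93 in Col-0 against 7.03 and 6.19 in lux-6.

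**Figure D3:**
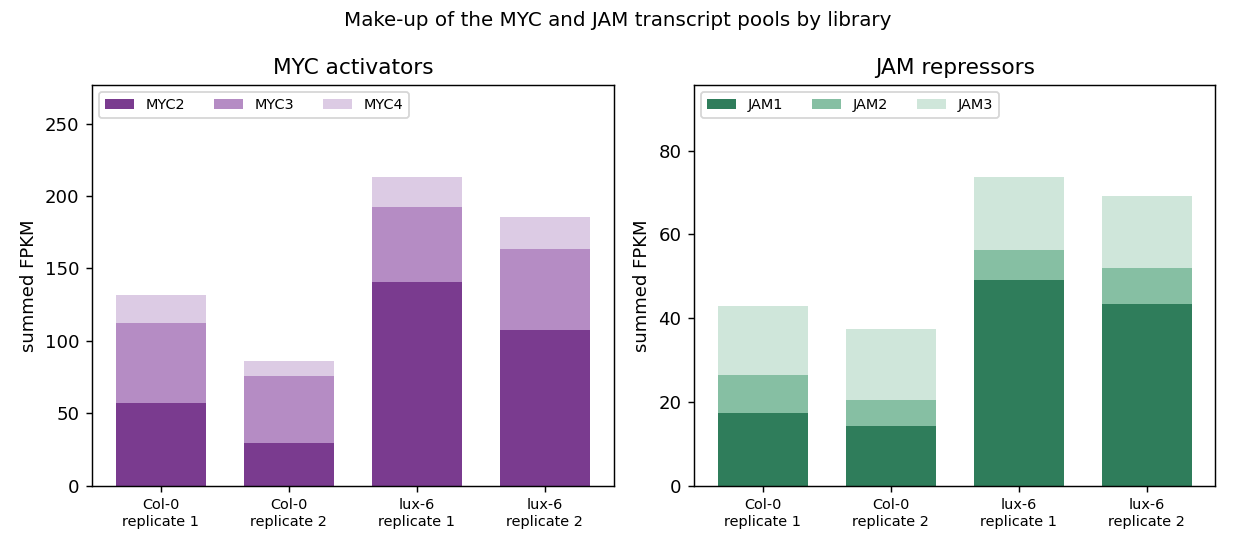
Summed FPKM (vertical axes from 0) of the activators MYC2, MYC3 and MYC4 and of the repressors JAM1, JAM2 and JAM3 in each library, stacked by gene. The darkest block, MYC2 or JAM1, accounts for most of the difference between genotypes, with MYC2 at 58.1% or more of its pool in lux-6 and at 43.3% or less in Col-0.

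The genes' patterns over the 4 libraries were compared by the distance between log2(FPKM + 1) values, with each gene centred on its own mean. MYC2 and JAM1 were 0.5 apart and each was over 1 from the remaining members. The closest pair among members was MYC3 and NINJA at 0.154. Among 15372 other genes averaging 5 FPKM or more, those nearest to MYC2 were the zinc-finger gene ZAT6 (AT5G04340, distance 0.0461), the methyltransferase gene IGMT4 (AT1G21130, 0.0578) and AT5G01740 (0.0644). IGMT4 measured 60.1 and 31.1 FPKM in the Col-0 libraries against 155 and 114 in those of lux-6. Nearest to JAM1 was ADR1-L2 (AT5G04720, 0.0937), with 14.5 and 12.9 FPKM in Col-0 against 41.6 and 39.0 in lux-6. Nearest to JAM3 was the cyclophilin gene ROC1 (AT4G38740) at 0.00809, between 441 and 466 FPKM in all libraries. The nearest genes to the others were AT2G01990 for MYC3 (0.0156), AT5G47380 for MYC4 (0.0261), ITPK4 (AT2G43980) for JAM2 (0.0135), HEN1 (AT4G20910) for COI1 (0.0249) and ATCOAE (AT2G27490) for NINJA (0.0136). With only 4 libraries, one of which stands apart, such closeness is a description.

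Of the listed genes that act with COI1, none passed the test, which 0.286% of all tested genes passed upwards and 0.0051% downwards. At an unadjusted p under 0.05 in limma, 9.18% of all tested genes were higher and 3.1% lower. In lists this short, counts of 0 are close to those shares. The SCF subunits are ASK1, ASK2, CUL1 and RBX1, and 0 of 4 passed in limma, with 0 at an unadjusted p under 0.05 and log2 fold changes between -0.074 and -0.01. RBX1 (AT5G20570), the RING subunit, had 46.5 and 51.9 FPKM in Col-0, against 48.0 and 45.2 in lux-6. CUL1 (AT4G02570), the scaffold, had a log2 fold change of -0.035 and ASK2 (AT5G42190), which links it to the F-box protein, -0.02. The auxin receptors TIR1, AFB1, AFB2 and AFB3, relatives of COI1, had log2 fold changes between 0.17 and 0.49, and 0 of 4 passed in limma or were at an unadjusted p under 0.05. AFB1 (AT4G03190) measured 23.1 and 17.4 FPKM in the Col-0 libraries against 25.7 and 31.6 in those of lux-6 (limma adjusted p = 0.461).

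Around NINJA, 0 of 8 corepressor and mediator genes passed in limma, with 0 at an unadjusted p under 0.05 and a median log2 fold change of -0.066. Over all tested genes, 0.286% passed upwards, and 9.18% were higher and 3.1% lower at an unadjusted p under 0.05. TPL (AT1G15750), the TOPLESS corepressor, had 45.4 and 33.3 FPKM in Col-0, against 46.2 and 52.1 in lux-6. TPR2 (AT3G16830), its relative, had a log2 fold change of 0.15, and the histone deacetylase gene HDA6 (AT5G63110) had -0.22. Without Col-0 replicate 2 these were 0.067 and -0.004. Of the 4 AFP genes, relatives of NINJA, 0 passed in limma and 1 was higher at an unadjusted p under 0.05 (9.18% over all tested genes). That gene, AFP4 (AT3G02140), measured 2.82 and 3.36 FPKM in the Col-0 libraries against 10.6 and 9.99 in those of lux-6, a log2 fold change of 1.47 (limma adjusted p = 0.0797). AFP2 (AT1G13740) and AFP1 (AT1G69260) had log2 fold changes of 0.23 and 0.22. Without Col-0 replicate 2 they were 0.085 and -0.19, so AFP1 changed sign.

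Of 5 genes for proteins that act on MYC2 stability, 0 passed in limma and 2 were higher at an unadjusted p under 0.05, against 9.18% of all tested genes. The receptor kinase gene FER (AT3G51550) had 59.6 and 38.8 FPKM in Col-0, against 74.1 and 85.9 in lux-6 (limma adjusted p = 0.373). The ubiquitin ligase gene PUB10 (AT1G71020) measured 14.7 and 10.4 FPKM in the Col-0 libraries against 20.5 and 18.5 in those of lux-6 (limma adjusted p = 0.383). BPM3 (AT2G39760), a substrate adaptor gene, had a log2 fold change of -0.34, and -0.026 without Col-0 replicate 2.

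The JAZ genes, whose proteins bind the MYC factors, mostly stood higher in lux-6. Of 13 listed, 11 were tested, 0 passed in limma and 8 were higher at an unadjusted p under 0.05, against 0.286% and 9.18% of all tested genes. The median log2 fold change was 1.94, or 1.71 without Col-0 replicate 2, and 0.05 over all tested genes. JAZ7 (AT2G34600) had 1.34 and 0.396 FPKM in Col-0, against 9.96 and 9.49 in lux-6 (log2 fold change 2.57, adjusted p = 0.0693), and JAZ9 (AT1G70700) and JAZ1 (AT1G19180) had log2 fold changes of 2.39 and 2.10. JAZ9 passed with limma-voom on fragments (adjusted p = 0.0408; 0.0525 in limma). JAZ4 and JAZ13 had means under 1 FPKM and were not tested. The touch and wounding genes and the seed genes described above were higher alongside the JAZ genes as well as MYC2 and JAM1. The part of these touch, wounding and seed genes in the JAZ values was not tested.

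Among 12 known MYC targets, LOX4 (AT1G72520), a lipoxygenase gene of jasmonate synthesis, was the only gene to pass. It measured 0.895 and 0.616 FPKM in the Col-0 libraries against 32.8 and 22.8 in those of lux-6 (log2 fold change 4.02, limma adjusted p = 0.0330). With a pseudocount of 0.1, with no filter and without either lux-6 library no gene passed, LOX4 included. LOX3 (AT1G17420), its close relative, had 4.70 and 3.23 FPKM in Col-0, against 34.4 and 24.1 in lux-6 (limma adjusted p = 0.0528; 0.0408 with limma-voom). The NAC factor gene ANAC055 (AT3G15500) measured 2.35 and 0.631 FPKM in the Col-0 libraries against 40.4 and 18.4 in those of lux-6 (limma adjusted p = 0.0895). In all, 5 of the 12 were higher and 0 lower at an unadjusted p under 0.05, against 9.18% and 3.1% of all tested genes. The 5 were LOX3, LOX4, ANAC019, ANAC055 and ERF1 (log2 fold change 1.34). The list was not split by whether MYC factors raise or lower a gene, so its counts and median do not describe activated targets alone. The limma test was passed upwards by 0.286% of all tested genes. For 6 of the 12 both lux-6 libraries exceeded both Col-0 libraries, against 26.1% of all tested genes. LOX2 (AT3G45140) alone had both below, with a log2 fold change of -0.21, against 22.8%. Among those that overlapped, VSP1, VSP2 and TAT3 had log2 fold changes of 0.95, 0.33 and 0.78. The median log2 fold change was 1.28, and 0.58 without Col-0 replicate 2, and the 12 genes ran from -0.45 for ORA59 to 4.02 for LOX4. The touch and wounding genes and the seed genes, with median log2 fold changes of 3.28 and 5.21, were higher in the same lux-6 libraries, and their part in the values of the MYC targets was not tested.

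The MYB genes, whose proteins pair with MYC factors at glucosinolate and stamen genes, had log2 fold changes of either sign. Of 8 listed, 6 were tested and 0 passed in limma, with 1 higher and 1 lower at an unadjusted p under 0.05, where 9.18% and 3.1% of all tested genes were. MYB51 (AT1G18570), a regulator of indole glucosinolates, had 8.78 and 5.24 FPKM in Col-0, against 50.7 and 48.7 in lux-6 (log2 fold change 2.70, limma adjusted p = 0.0514; 0.0383 with limma-voom). MYB29 (AT5G07690) and MYB28 (AT5G61420), regulators of aliphatic glucosinolates, were at 42.9 and 31.1 and at 96.4 and 69.1 FPKM in Col-0. In lux-6 they were at 22.1 and 20.9 and at 58.2 and 58.6 FPKM, with log2 fold changes of -0.74 and -0.48. MYB21 and MYB24, of stamens, were at or close to 0 in each library.

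**Figure D4:**
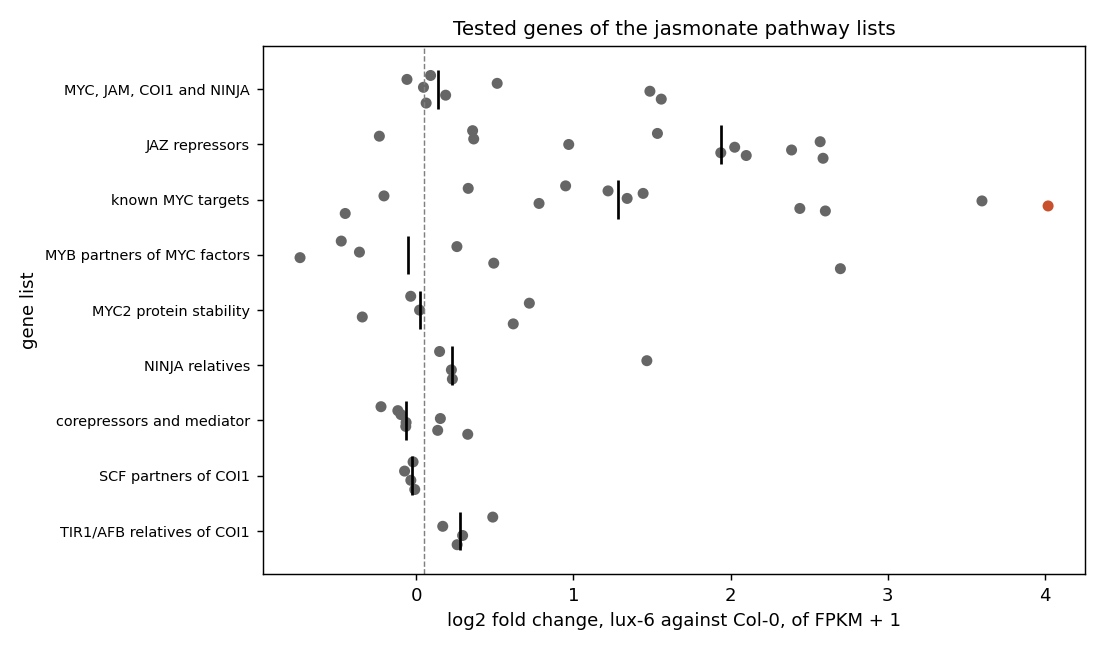
Log2 fold change of FPKM + 1 (horizontal axis), lux-6 against Col-0, for each tested gene of the jasmonate lists, with a black bar at the list's median, a dashed line at the median of all tested genes (0.05) and the gene past the limma test, LOX4, in orange. JAZ repressors (median 1.94) and MYC targets (1.28) lie to the right of the members (0.14), and COI1's SCF partners sit at 0.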

How the data were processed

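Whole-seedling RNA-seq of 2 Col-0 and 2 lux-6 libraries was used, grouped by title. Each library has its own file, with values in FPKM per the file headers. TopHat2 2.0.12 and TAIR10 are named, without roles, in the submitters' processing notes. The counting method is not given in the sources used here, nor are the gene lengths or any filter. Limma 3.58.1 in R 4.3.3, with a mean-variance trend and genotype as its only term, was fitted to log2(FPKM + 1) of the 19592 genes averaging 1 FPKM or more, two-sided, with Benjamini-Hochberg adjustment over all of them at 0.05. Residual and prior degrees of freedom were 2 and 2.88. The scale understates differences of low genes.

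Fragments were worked back by searching for a gene length, within 0.5 to 1.2 times the annotated length, that made all libraries whole within 0.002. That succeeded for 20325 of 24532 genes above 0 (82.9%). JAM2 and NINJA were not among them and no fragments are quoted for these. Counting errors cover counting only. Whether the FPKM used strand or unique reads is not given, so reads shared between relatives are uncertain. Gene names, motif windows and coordinates come from RefSeq TAIR10.1, joined to the values by identifier only.

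The fit and the fragment search were run on simulated data. For the fit, every simulated gene and library had the same spread, the median SD of the lux-6 pair. That run therefore does not cover the wider spread of the Col-0 pair. Alternatives were a pseudocount of 0.1, no filter, a mean of at least 5 FPKM, median-of-ratios scaling, organelle genes removed, a replicate block, limma-voom on fragments, and each library left out. Named genes are all members, LUX, the nearest genes by pattern (3 for MYC2, 1 for each other) and up to 3 genes per list by smallest p. MYB21, MYB24, JAZ4, JAZ13, ASK1, TIR1, LOX2, VSP1, VSP2, TAT3, ANAC019, ERF1, ORA59 and marker genes were also named, to describe a list. Members and lists were chosen with earlier results of these data known. P-values measure only the spread between these samples.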

Additional observations from a re-analysis of the deposited data

How the results depend on the processing

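Under all alternatives run, MYC2, MYC4, JAM1 and COI1 kept a positive log2 fold change. Leaving out each library in turn gave ranges of 1.09 to 2.02 for MYC2, 1.36 to 1.62 for JAM1, 0.13 to 0.90 for MYC4, -0.042 to 0.22 for MYC3, -0.18 to 0.31 for JAM2 and -0.18 to 0.066 for NINJA. JAM3 turned to -0.013 with median-of-ratios scaling, which moved the median of all genes from 0.047 to -0.009. The repressor to activator ratio, lux-6 minus Col-0, was -0.0202, or 0.0331 once Col-0 replicate 2 was left out.

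Same-numbered Col-0 and lux-6 libraries deviated together with r = -0.025 across genes, so the numbers were not taken as pairs. With the number as a replicate block, MYC2 (1.56, adjusted p = 0.0431) and JAM1 (1.49, adjusted p = 0.0365) passed, 2 members in place of 0, and 332 genes passed upwards and 8 downwards. Between 0 and 3 members passed with a library left out, the 3 without Col-0 replicate 1, and 0 without either lux-6 library. Members with both lux-6 libraries above numbered 3 with median-of-ratios scaling, where 1 lay below, and 5 to 8 with a library left out, where 0 to 2 lay below.

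Over all genes 56 passed upwards and 1 downwards in limma. The counts were 0 and 0 with a pseudocount of 0.1 and with no filter, 97 and 3 among genes averaging 5 FPKM or more, 95 and 1 with median-of-ratios scaling, 95 and 3 without organelle genes, 87 and 3 with limma-voom, and from 0 to 4244 and 0 to 2374 with a library left out. The cause of these shifts was not tested.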
